A study of Mus musculus with 36 samples.

Results

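Long intergenic non-coding RNAs (lincRNAs) are transcripts without a recognised protein product whose genes lie between protein-coding genes. In this study, poly(A) RNA was sequenced from a mouse chondrocyte line, immortalised cells of cartilage origin with a fibroblast-like form. The genotype of every culture was labelled WT, and a non-targeting siRNA pool (NT) or an siRNA pool against *Ift88* (IFT88siRNA) was transfected. The labels give 50 nM of siRNA, whereas the study's methods give 10 nM. *Ift88* encodes a protein of intraflagellar transport, the traffic that builds the primary cilium. Both groups were sampled without IL-1β (0 h) and at 1, 2, 4, 8 or 24 h of treatment with 10 ng/ml of this inflammatory cytokine, with 3 libraries per condition (12 conditions, 36 libraries). The only libraries without IL-1β were those at 0 h, so a change with IL-1β here is a change from 0 h. Effects of the cytokine and of time in culture cannot be told apart. All libraries came from 1 cell line, and the labels do not say whether the 3 libraries of a condition came from separate cultures, so the p-values measure the spread between these libraries. The question was how a cell with less IFT88 responds to IL-1β.

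The lincRNAs were chosen by their mean raw count: they were the rows of the raw count table that the authors annotated as lincRNA and that had a mean raw count of 50 or more over the 36 libraries, leaving out 1 gene by name. There were 122 of them, among 5279 lincRNA rows and 53421 rows in all. Their mean raw counts ran from 51.2 to 8344 with a median of 127, and 45 were under 100. Just inside the limit were *Platr22* at 51.4 and *Gm6712* at 51.2, and just outside it *Mirt1* and *Gm43660* at 49.9 each. Of the other lincRNA rows, 5156 were under the limit, 2267 of them with no read in any library. A mean over all conditions can also be reached through a few conditions with many reads. *Gm26902*, for instance, had 2, 2 and 3 reads in the NT libraries at 0 h and 159, 141 and 153 at 24 h, so the number of lincRNAs that rose is partly fixed by the choice.

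LincRNA transcripts can act in the nucleus, where *Neat1* is the scaffold of paraspeckles, *Malat1* sits in nuclear speckles and *Xist* coats the inactive X chromosome. Others are read mainly for what they carry: *Mir155hg* and *Mir17hg* are the primary transcripts of microRNAs, and the *Snhg* genes hold small nucleolar RNAs in their introns. Many start close to a protein-coding gene, on the other strand, and share a promoter region with it.

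Total counts per library were from 19337022 to 38304127, with a median of 21672804 in NT and 25873754 in IFT88siRNA libraries. The 122 lincRNAs took from 0.144% to 0.237% of the counts of a library. *Ift88* was at 22.9% to 36.1% of the NT level at the 6 time points, so the knockdown was present in each comparison. Of 16 mesenchymal and cartilage markers, 15 had a median of 1 CPM or more, but aggrecan (*Acan*), a defining gene of cartilage matrix, stayed between 0.024 and 0.711 CPM. Of the markers of other cell types, 4 of 6 for macrophages, 5 of 5 for endothelium and 4 of 5 for epithelium had a median under 1 CPM. Their summed levels ran from 4.87 to 8.69 CPM, from 1.32 to 3.45 CPM and from 0.892 to 20.7 CPM. *Ptprc* and *Pecam1* were at 0 in some libraries, while *Cd68* ran from 3.3 to 6.92 CPM, *Lyz2* from 0.474 to 3.14 CPM and *Cdh1* from 0.337 to 18.6 CPM. Their part in the results was not tested. Fewer cells with a transcript and less transcript per cell cannot be told apart in bulk RNA.

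By gene ID, all 122 matched the GENCODE annotation of mouse build GRCm38, which still typed 116 of them as lincRNA. Exonic length ran from 168 bases for *Bc1* to 20771 bases for *Neat1*, with a median of 2773 bases. A single exon block made up 23 of the genes. The starts of 28 lay within 1000 bases of the start of a protein-coding gene on the opposite strand, called head-to-head here. Exonic bases were shared with an opposite-strand gene by 43 lincRNAs and with a same-strand gene by 20, and 26 shared 10% or more of their exonic length. The authors counted reads with default, unstranded settings, so reads of these overlaps cannot be assigned to 1 strand.

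A microRNA gene lay on the same strand inside 7 of the lincRNA genes. The mature sequences from RefSeq (GRCm38.p6) for 3 hosts that rose with IL-1β are printed 5′ to 3′ because the microRNA is the known product of these transcripts. Capitals mark the seed, bases 2 to 8, which pairs with target mRNAs. *Mir155hg* (chr16:84703167-84715245, plus strand) carries miR-155, *Gm3764* (chr3:88206813-88229959, plus strand) carries miR-9 and *Mir17hg* on chromosome 14 carries the miR-17 cluster.
miR-155-5p: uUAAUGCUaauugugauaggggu
miR-155-3p: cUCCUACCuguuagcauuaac
miR-9-5p: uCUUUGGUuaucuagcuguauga
miR-17-5p: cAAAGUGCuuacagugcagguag
miR-20a-5p: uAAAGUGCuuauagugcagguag
miR-19a-3p: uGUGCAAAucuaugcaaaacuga
miR-19b-3p: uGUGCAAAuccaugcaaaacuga
miR-92a-3p: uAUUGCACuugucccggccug
Within the cluster, miR-17-5p and miR-20a-5p share the seed AAAGUGC, and miR-19a-3p and miR-19b-3p share GUGCAAA. The hosts *Ftx*, *Snhg20* and *2900076A07Rik* fell with IL-1β in NT, and their microRNAs are not printed. Mature microRNAs were not measured, and the values given here are reads of the host transcripts.

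Promoter sequence (250 bases before to 50 after the RefSeq start, GRCm38.p6) was at hand for 68 of the 122. For 62 of the 68 the RefSeq start lay within 1000 bases of the GENCODE start. The others lay further away, *Mir155hg* (9856 bases) and *Gm19705* (12627 bases) among them, so their windows may miss the start of the transcript counted. The sequence was searched on both strands for the NF-κB consensus, for the AP-1 motif TGANTCA and for the cAMP response element TGACGTCA. The AP-1 motif was in 5 of the 68 (7.4%), against 7.8% of all 32851 promoters searched. The NF-κB consensus was in 1 (1.5%), against 4.5%, and the cAMP response element in 4 (5.9%), against 1.8%. A match is only a match of letters.
The promoters of 3 lincRNAs that rose with IL-1β are shown, chosen after their values were seen, with matches in capitals. The first holds the NF-κB consensus and TGACGTCA, and lies 7669 bases inside the GENCODE start of *Gm3764*. The second holds an AP-1 match, TGATTCA, and the third, which holds no match, lies on the *Ccn1* side of the GENCODE start of *Gm17501*, a head-to-head pair.
Gm3764, chr3:88214232-88214531, plus strand: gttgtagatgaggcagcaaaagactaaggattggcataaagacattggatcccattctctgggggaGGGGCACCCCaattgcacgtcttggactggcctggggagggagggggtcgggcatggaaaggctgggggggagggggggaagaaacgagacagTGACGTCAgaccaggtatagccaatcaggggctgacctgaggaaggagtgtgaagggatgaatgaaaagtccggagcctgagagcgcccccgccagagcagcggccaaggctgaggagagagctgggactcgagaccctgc
Gm16907, chr13:63297098-63297397, minus strand: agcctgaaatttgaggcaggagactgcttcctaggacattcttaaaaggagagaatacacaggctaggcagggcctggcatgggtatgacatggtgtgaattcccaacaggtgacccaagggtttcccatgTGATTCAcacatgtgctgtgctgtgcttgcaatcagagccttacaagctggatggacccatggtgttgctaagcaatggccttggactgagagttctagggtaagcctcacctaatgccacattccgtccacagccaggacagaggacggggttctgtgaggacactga
Gm17501, chr3:145649827-145650126, plus strand: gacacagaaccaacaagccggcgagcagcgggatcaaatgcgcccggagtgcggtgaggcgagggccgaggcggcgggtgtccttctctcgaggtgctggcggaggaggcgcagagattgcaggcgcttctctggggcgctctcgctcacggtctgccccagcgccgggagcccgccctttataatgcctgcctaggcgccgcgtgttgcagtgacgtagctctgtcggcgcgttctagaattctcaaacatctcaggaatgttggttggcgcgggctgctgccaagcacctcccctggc

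Levels between genes were compared per length, as the TPM values that the authors obtained with Salmon. *Gm26809* had the highest median TPM over the 36 libraries at 145, followed by *1810058I24Rik* at 94.3, *2900097C17Rik* at 91.7 and *Neat1* at 76.5. *2900097C17Rik* is the mouse *Norad*, a cytoplasmic RNA that binds Pumilio proteins. *Gm53*, a gene of the *Hoxb* cluster, was at 57.8 TPM, *Bc1* at 49.5, *Snhg6* at 49.4, *Xist* at 48.2, *Gm17501* at 44.4 and *Malat1* at 43.9. The ranges over libraries of neighbours in this order overlapped. On the read counts per kilobase of exon only 5 of these 10 stayed among the first 10, and *Gm26809* stood at place 41. It shares 28.7% of its exonic bases with *Gm20186* on the other strand, and the part of this in the gap between the measures was not tested. *Gm10076* stood at place 111 by TPM and at place 1 by read counts per kilobase.

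The second question was how the lincRNAs of NT cells changed from 0 h during treatment with IL-1β. A gene was called with an adjusted p under 0.05 by edgeR's quasi-likelihood test over all genes and a fold change over 1.5. Over the whole course in NT, 74 of the 122 were called (31 by a rise and 43 by a fall as their largest change), and 49.8% of all 16048 genes tested were called. In the IFT88siRNA libraries 74 were also called (34 by a rise, 40 by a fall), with 48.1% of all genes. Calls in both groups covered 65 lincRNAs, and 39 were called in neither. The matching shares of all genes for these 2 counts are not given.

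At 1 h in NT, 16 lincRNAs rose and 27 fell, and 18.6% of all genes were called. At 2 h, 21 rose and 31 fell (all genes 27.2%). At 4 h the numbers were 20 and 17 (all genes 28.6%), at 8 h 12 and 15 (all genes 19.7%), and at 24 h 10 and 15 (all genes 16.2%). The lincRNAs' median log2 change lay between -0.164 at 1 h and -0.112 at 8 h, and that of all genes between -0.019 and -0.008. Among the lincRNAs called over the course in NT, the largest change came at 2 h for 12 that rose and 18 that fell, and at 4 h for 9 that rose and 7 that fell. The heat map shows the lincRNAs with the largest called changes.

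**Figure D1:**
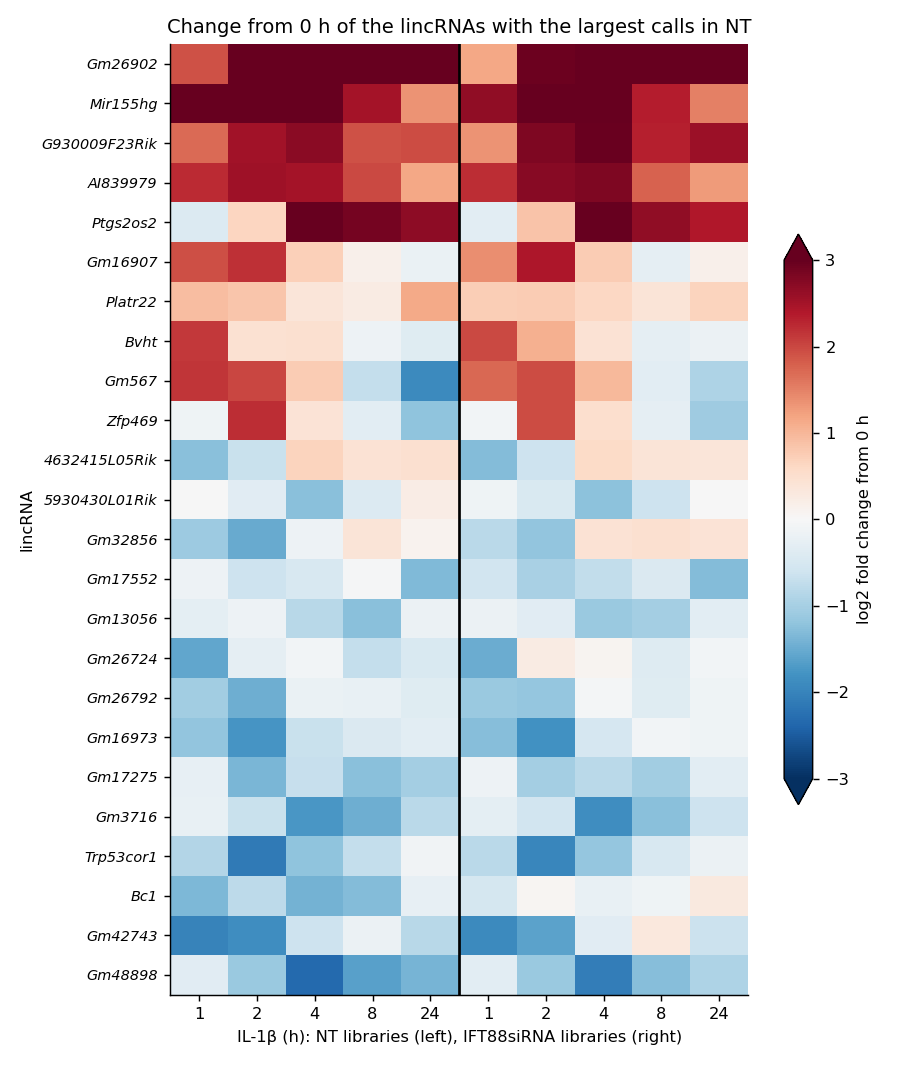
Heat map of the log2 fold change from 0 h (colour, cut at -3 and 3) for 24 lincRNAs (rows) at 1 to 24 h with IL-1β, in NT libraries (left 5 columns) and IFT88siRNA libraries (right 5 columns). Each row is among the 5 largest called rises or falls of at least 1 time point in NT. *Gm26902* and *Mir155hg* head the rises, and *Gm48898* and *Gm42743* stand at the foot.

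Among the lincRNAs linked to immune responses, 4 of a list of 10 were members, and 3 rose at 4 h while none fell (median log2 change 1.91, all genes -0.016). Of all genes, 16.2% were called by a rise and 12.3% by a fall at that time. *Mir155hg* (14, 3 and 5 reads in NT at 0 h) and *Ptgs2os2* (24, 22 and 17) reached the count limit through the times when they were high. The number that rose is therefore partly fixed by the choice. *Mir155hg*, whose microRNA is known from activated immune cells, was at 0.592, 0.124 and 0.222 CPM (reads scaled to a common library size) in the NT libraries at 0 h. It was at 2.62, 2.99 and 5.02 CPM at 1 h, at 9.45, 4.01 and 8.62 CPM at 2 h and at 6.29, 7.80 and 8.51 CPM at 4 h. All libraries at 1, 2 and 4 h lay above all those at 0 h. At 24 h *Mir155hg* had fallen to 0.632 to 1.05 CPM, still above the 3 libraries at 0 h. Its log2 change was 4.58 ± 0.52 (SE) at 4 h (adjusted p = 2.6e-06) and 1.35 ± 0.76 at 24 h (adjusted p = 0.17).

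*Ptgs2os2* (chr1:150159043-150164948, minus strand), named for *Ptgs2*, the inducible cyclooxygenase gene whose start lies 64917 bases away, came later. In NT it stood at 1.01, 0.907 and 0.754 CPM at 0 h and at 0.801, 0.608 and 0.640 CPM at 1 h, when its log2 change was -0.40 ± 0.30 (adjusted p = 0.28). At 4 h it reached 7.48, 9.50 and 5.85 CPM, a log2 rise of 3.10 ± 0.19 (adjusted p = 2.3e-15), and at 24 h it was still at 5.39 to 6.21 CPM. *Ptgs2* itself held 48.4 ± 0.76 CPM at 0 h, already 608 ± 20.2 at 1 h and 837.5 ± 42.4 at 4 h (SD, n = 3). The third, *Gm14005*, a long transcript of chromosome 2, rose only by a log2 change of 0.73 ± 0.09 at 4 h. The remaining member of that list, *Gm26917*, was at -0.20 at 4 h and was not called.

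**Figure D2:**
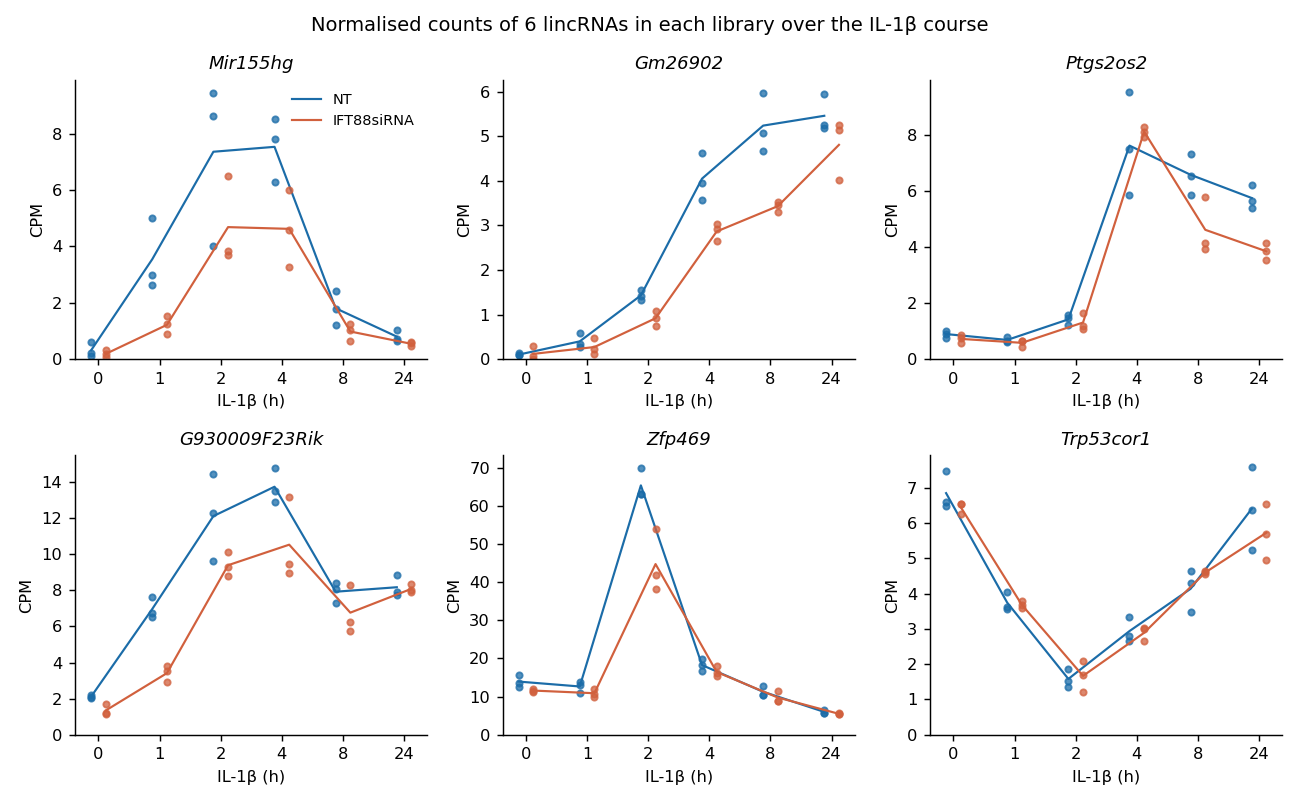
CPM of 6 lincRNAs in each library (points) and condition mean (lines) against hours with IL-1β, for NT (blue) and IFT88siRNA (orange), each panel from 0. *Zfp469* stands out at 2 h alone, *Gm26902* and *Ptgs2os2* were still high at 24 h, and *Trp53cor1* had its lowest values at 2 h.

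The 3 members on a list of 19 known microRNA hosts, *Mir155hg*, *Carmn* and *Mir17hg*, were each called over the course in NT by a rise (median log2 change 1.92, all genes -0.21). Of all genes, 23.6% were called by a rise and 26.2% by a fall. The list left out *Ftx*, *Snhg20* and *2900076A07Rik*, which hold a microRNA gene and fell, and *Gm3764*, which rose. By the annotation, no microRNA gene lay inside *Carmn*. *Carmn* and *Bvht*, known from heart and smooth muscle cells, peaked at 1 h. *Bvht* held 3.93, 3.46 and 4.12 CPM at 0 h, 17.1, 16.1 and 17.2 CPM at 1 h and 3.69 to 7.02 CPM at 2 h. The log2 rise at 1 h was 2.12 ± 0.21 for *Bvht* (adjusted p = 2.7e-07) and 1.92 ± 0.16 for *Carmn* (adjusted p = 1.5e-11). *Mir17hg* rose only at 2 h, by 0.89 ± 0.30 (adjusted p = 0.021), with NT libraries at 11.5, 5.61 and 12.2 CPM against 4.52 to 6.12 CPM at 0 h, so the groups overlapped. *Gm3764*, the miR-9 host whose promoter is printed above, stood at 5.07 to 6.60 CPM at 1 h, near its 0 h values of 4.95 to 5.68. At 4 h it reached 19.3, 23.8 and 24.1 CPM, a log2 rise of 2.07 ± 0.26 (adjusted p = 1.1e-05).

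Other rises differed in when they came and how long they lasted. *Gm16907* (minus strand of chr13:63289601-63297147) was at 3.76, 3.38 and 2.79 CPM at 0 h, at 11.6, 12.9 and 13.2 at 1 h and at 2.36 to 3.42 at 24 h, with a log2 change of 1.92 ± 0.17 at 1 h and -0.21 ± 0.20 at 24 h. *Gm567* rose by 2.14 ± 0.20 at 1 h and was 1.92 ± 0.32 below 0 h at 24 h (adjusted p = 2.6e-05). *G930009F23Rik* (chr15:38436225-38455134, minus strand) and *AI839979* stayed high: at 24 h their log2 changes were 1.95 ± 0.14 and 1.15 ± 0.18. The sharpest time was that of *Zfp469*, a single-exon gene of 3082 bases that carries the symbol of a zinc finger protein. It stood at 15.6, 12.6 and 13.7 CPM at 0 h, at 13.0, 13.9 and 11.1 at 1 h, at 63.0, 63.1 and 70.0 at 2 h and at 18.2, 19.9 and 16.6 at 4 h. Its log2 change was 2.22 ± 0.08 at 2 h (adjusted p = 1.1e-19) and -1.22 ± 0.11 at 24 h, and the 2 h NT libraries stood clear of all other NT libraries.

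Head-to-head lincRNAs could be set beside their coding neighbours. *Gm26902* (chr19:34474808-34481546, plus strand) starts 356 bases from *Ch25h*, which encodes cholesterol 25-hydroxylase, and shares 4.3% of its exonic bases with it. In NT it was at 0.0845, 0.0825 and 0.133 CPM at 0 h, at 3.57, 3.95 and 4.62 CPM at 4 h and at 5.95, 5.24 and 5.18 CPM at 24 h. The log2 rise was 5.28 ± 0.30 at 4 h and 5.70 ± 0.28 at 24 h (adjusted p = 1.7e-17), against a base of 2 or 3 reads a library. *Ch25h* was highest at 4 h, at 73.8 ± 1.5 CPM, and at 36.8 ± 2.2 CPM at 24 h (SD, n = 3). *Gm17501* (chr3:145650312-145677580, plus strand) starts 331 bases from *Ccn1*, a matricellular protein gene. It held 11.8, 12.3 and 11.6 CPM at 0 h and 43.3, 38.8 and 40.4 CPM at 1 h, with no overlap. Its log2 rise at 1 h was 1.77 ± 0.07, that of *Ccn1* 2.83 ± 0.05, and it shares no exonic base with that gene.

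Over the 28 head-to-head pairs, the log2 changes of lincRNA and neighbour at 4 h in NT had Pearson's r = 0.949 and Spearman's rho = 0.536. Without the *Gm26902* and *Ch25h* pair, r was 0.732 over 27 pairs. At 2 h r was 0.839 (0.712 without that pair) and at 1 h 0.582 (0.439 without it). For the differences between IFT88siRNA and NT at 1 h, r was -0.389 and rho -0.372 over 27 head-to-head pairs. These are descriptions across pairs of genes measured in the same libraries. At 4 h in NT 16.2% of all genes were called by a rise and 12.3% by a fall. Of 6 head-to-head lincRNAs called at that time, 5 had a neighbour called in the same direction. They included *9330175E14Rik* (1.04) with *Nlrc5* (2.01), a regulator of MHC class I genes, and *A330074K22Rik* (0.83) with *Gse1* (1.33). At 1 h only 2 of 8 had such a neighbour, when 9.2% of all genes were called by a rise and 9.44% by a fall. *5033430I15Rik* rose by 1.58 ± 0.14 at 1 h with *Atxn1* at 0.06 ± 0.06, whereas at 4 h *Atxn1* rose by 1.57 ± 0.06 and the lincRNA was at 0.38 ± 0.16. Likewise *9330175E14Rik* fell by 0.79 while *Nlrc5* was at 0.11. Among the 72 other lincRNAs with a tested nearest coding gene, r was 0.502 at 4 h, and 8 of 25 called had a neighbour called the same way.

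**Figure D3:**
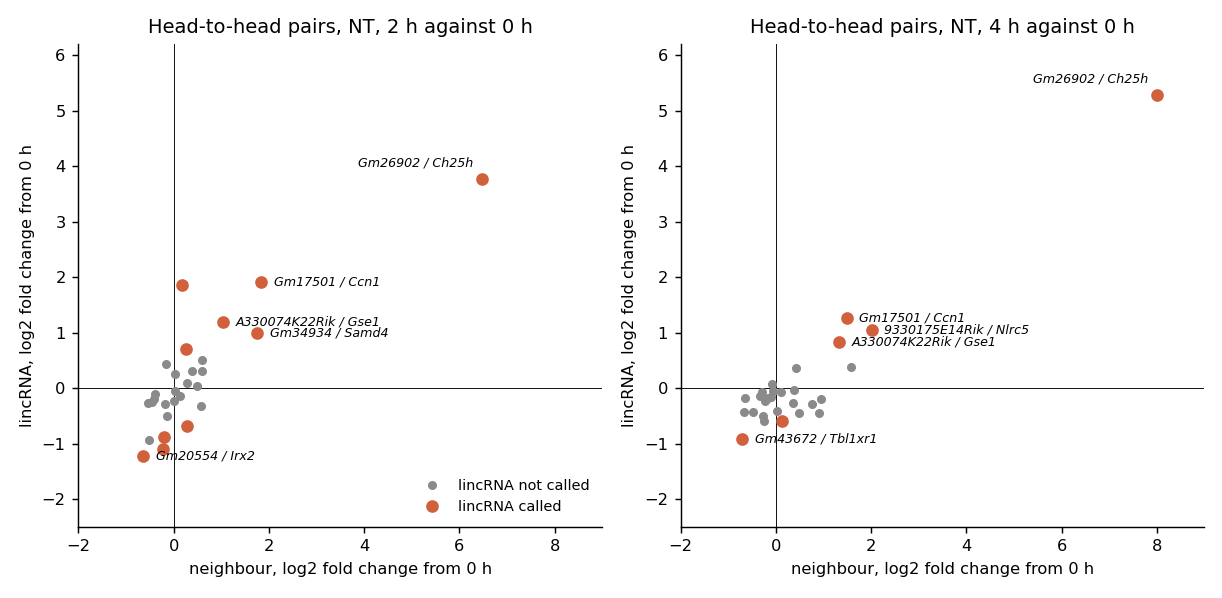
Log2 fold change from 0 h in NT of each head-to-head lincRNA (vertical) against its coding neighbour (horizontal) at 2 h (left) and 4 h (right), 28 pairs each. Orange points are called lincRNAs, with both names where the neighbour was called in the same direction. The pair of *Gm26902* and *Ch25h* stands far from the others at both times, at 5.28 and 8.0 at 4 h.

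At 1, 2, 8 and 24 h more lincRNAs fell than rose. Of all genes, 9.2% were called by a rise and 9.44% by a fall at 1 h, and 12.9% and 14.3% at 2 h. At 8 h these shares were 11.8% and 7.86%, and at 24 h 6.56% and 9.68%. *Trp53cor1* (lincRNA-p21, a target of p53) starts 11797 bases from *Cdkn1a*, the p21 cell cycle inhibitor. It was at 6.59, 7.46 and 6.47 CPM at 0 h in NT, at 3.63, 3.56 and 4.04 at 1 h, at 1.51, 1.37 and 1.87 at 2 h and at 7.59, 5.24 and 6.37 at 24 h. It fell by 2.11 ± 0.17 on the log2 scale at 2 h (adjusted p = 1.6e-12), and the 2 h NT libraries were below all other NT libraries. *Cdkn1a* was at -0.31 ± 0.05 at that time. Of the exonic bases of *Trp53cor1*, 48.7% overlap other genes, and the effect of this on its count was not tested. In its list of p53 and growth lincRNAs, 2 of 4 members fell at 2 h and none rose (median log2 change -0.38, all genes -0.010), while 14.3% of all genes were called by a fall and 12.9% by a rise. *Pvt1*, the neighbour of *Myc*, was the other, at -0.63 ± 0.08. *1700020I14Rik* (Cyrano), which binds miR-7, changed by less than 1.5-fold.

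*Gm48898*, near *Gdf7*, was called lower at 2, 4, 8 and 24 h. Its NT libraries were at 30.9, 27.9 and 28.7 CPM at 0 h, at 5.72, 5.42 and 6.11 at 4 h and at 12.1, 11.2 and 9.79 at 24 h. It fell by 2.34 ± 0.09 at 4 h (adjusted p = 4.0e-21). *Gm3716* fell by 1.76 ± 0.12 and *Bc1* by 1.41 ± 0.25 at the same time. *Bc1* is a short RNA whose sequence resembles dispersed repeats, so reads may be shared with them. *Gm42743* fell by 2.0 ± 0.23 at 1 h, with 32.0% of its exonic bases shared with other genes, the histone gene *Hist2h2bb* among them. *Lockd*, near the cell cycle inhibitor gene *Cdkn1b*, fell by 1.09 at 4 h, and *BC002059* by 1.09 at 2 h. *Ftx*, a non-coding gene of the X inactivation centre, fell by 1.32 ± 0.16 at 2 h, when *Xist*, the other member of that list of 5, was at -0.13 ± 0.12.

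Of 5 members on a list of 21 hosts of small nucleolar RNAs, 3 fell at 1 h and none rose (median log2 change -0.67, all genes -0.009). At that time 9.44% of all genes were called by a fall and 9.2% by a rise. *Snhg12* was at 13.9, 13.1 and 13.7 CPM at 0 h, at 6.62, 5.90 and 8.07 at 1 h and at 16.6, 16.1 and 18.4 at 8 h. Its fall of 0.99 ± 0.11 at 1 h (adjusted p = 8.3e-09) was followed by a log2 change of -0.11 ± 0.10 at 4 h. *Snhg6* fell by 0.67 and *Snhg20* by 0.70 at 1 h, *Snhg18* rose by 0.70 at 2 h, and *Epb41l4aos* was not called at any time. *Hotair*, of the *Hoxc* cluster and the 1 member of a list of 8 Hox and limb lincRNAs, reached a log2 change of 0.50 ± 0.13 at 2 h and was not called.

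The most abundant lincRNAs by count were not called with IL-1β in NT. *2900097C17Rik* (*Norad*) had condition means of 125 to 139 CPM in NT and *1700020I14Rik* of 114 to 161 CPM. *Xist* had NT means of 321 to 428 CPM. *Neat1* was at 146, 130 and 145 CPM at 0 h and at 303, 117 and 327 CPM at 2 h, so the 2 h libraries lay on both sides of the 0 h values (adjusted p over the course = 0.097). In the IFT88siRNA libraries *Neat1* was called over the course, with a largest log2 change of 1.49, and so was *Malat1*, with one of -0.70. The edgeR test of a different response between the groups called neither (adjusted p over the 5 times = 0.55 and 0.40). Of 18 paraspeckle proteins, 3 were called over the course in NT, each by a fall, where 49.8% of all genes were called. Of them *Rbmx* was at -0.66 ± 0.11 at 4 h. Of 16 microRNA processing proteins 1 rose and 3 fell at 4 h, when 28.6% of all genes were called, with *Zc3h12a*, an RNase induced by IL-1, at 5.08 ± 0.10. Of 19 tested nuclear RNA exosome genes and adaptors only *Papd7*, at 1.07 ± 0.04, was called at 4 h, against the same share of all genes.

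**Figure D4:**
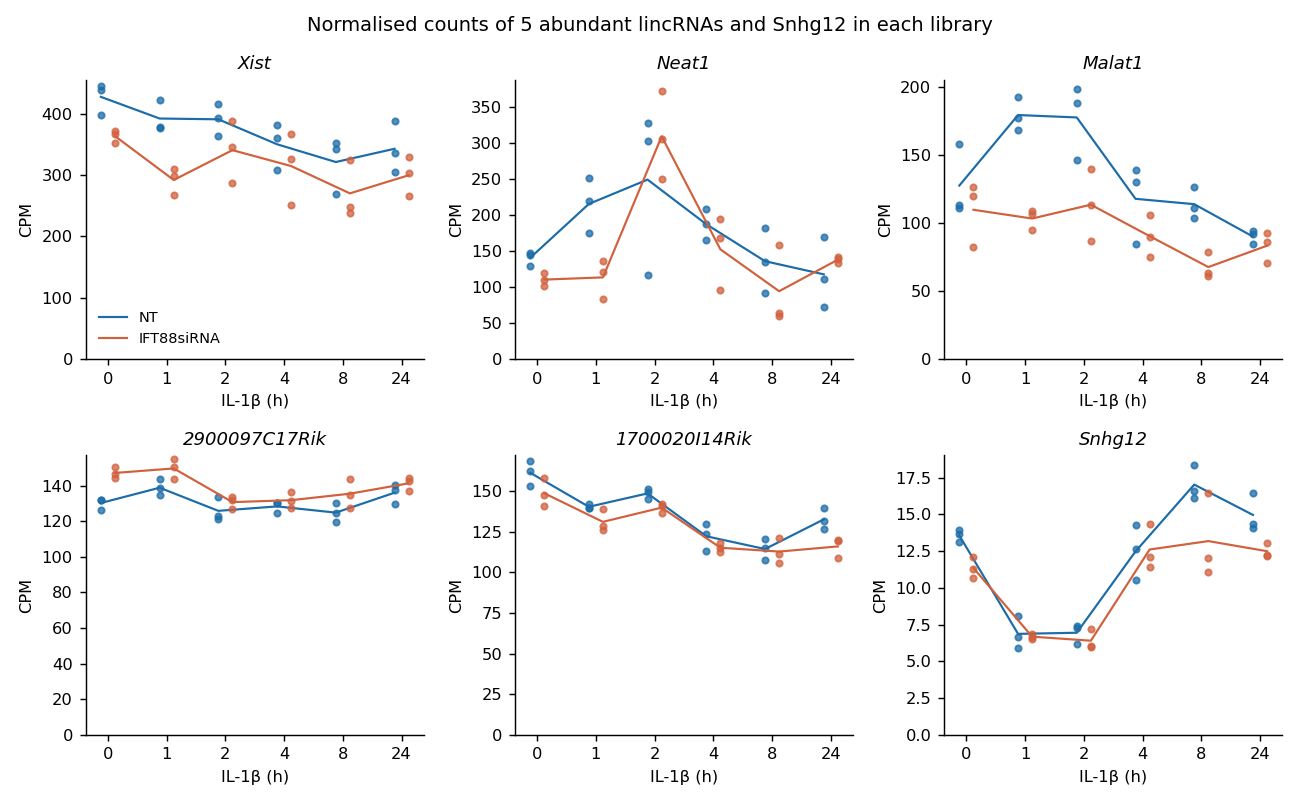
CPM of *Xist*, *Neat1*, *Malat1*, *2900097C17Rik* (*Norad*), *1700020I14Rik* (Cyrano) and *Snhg12* in each library (points) and condition mean (lines) against hours with IL-1β, NT in blue and IFT88siRNA in orange, each panel from 0. *Malat1* was lower in the IFT88siRNA libraries at 1 h, and *Neat1* spread widely between libraries of 1 condition.

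*Neat1* was used to describe this spread, after its values were seen. Each library's log2 value was taken as its deviation from the mean of its condition, and the deviations of every gene were correlated with those of *Neat1* over the 36 libraries. All genes share these libraries and their depth, so the values describe likeness only. Of 121 other lincRNAs 43 (35.5%) had a correlation over 0.5 and 21 over 0.8, whereas 13.0% of all tested genes were over 0.5 and 2.72% over 0.8. The highest were *AI480526* (0.968), the let-7 host *6720427I07Rik* (0.943), *Gm26532* (0.934), *Gm3764* (0.927) and *Gm21781* (0.919), and *Mir17hg* was at 0.872. *2900097C17Rik* had the lowest (-0.732), and *Malat1* was at 0.217. At 8 h the IFT88siRNA libraries held *Neat1* at 64.2, 59.5 and 159 CPM, and *Gm26532* at 3.38, 3.32 and 9.86 CPM, and replicate 3 was high for both.

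The next question was which lincRNAs differed between IFT88siRNA and NT at the same time. At 0 h 7 of 120 tested were called (6 lower in IFT88siRNA, 1 higher), and 2.18% of all genes were called (1.55% lower, 0.629% higher). At 1 h 13 of 121 were called, each lower, against 2.62% of all genes. Most called genes were also lower at 1 h: 2.43% of all genes were called lower and 0.189% higher. All 3 IFT88siRNA libraries lay below all 3 NT libraries for 40 lincRNAs at 0 h, where 17.4% of all genes did so, and for 32 at 1 h (17.2%). At 2, 4, 8 and 24 h this held for 11, 10, 10 and 19 lincRNAs, and for 11.01%, 10.4%, 10.8% and 13.6% of all genes. At 2 h edgeR called none of 122 (all genes 0.509%), with 13 at an unadjusted p under 0.05 (17.2% of all genes) and none by DESeq2. At 4 h 1 was called (all genes 0.446%), at 8 h 2 (all genes 0.824%) and at 24 h 1 (all genes 1.21%). The median log2 difference of the lincRNAs was -0.13 at 0 h, -0.16 at 1 h, -0.06 at 2 and 4 h, -0.13 at 8 h and -0.03 at 24 h, and that of all genes was within 0.004 of 0 at each time.

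**Figure D5:**
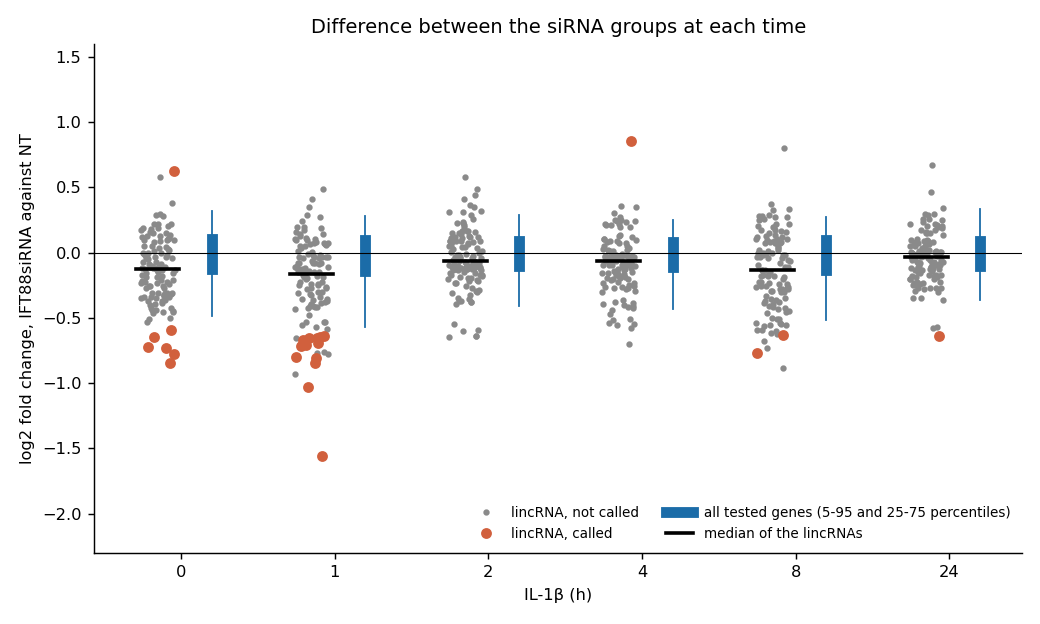
Log2 fold change of IFT88siRNA against NT (vertical) for each lincRNA at each time with IL-1β (horizontal). Points are lincRNAs (orange where called), black bars their median, and the blue line and box the 5 to 95 and 25 to 75 percentiles of all genes tested. At 1 h all 13 called lincRNAs lie below 0 (of all genes, 2.43% were called lower and 0.189% higher), and *Mir155hg* is the lowest at -1.56.

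At 1 h *Mir155hg* differed most. Its IFT88siRNA libraries held 1.51, 0.897 and 1.23 CPM and its NT libraries 2.62, 2.99 and 5.02 CPM, which did not overlap. The log2 difference was -1.56 ± 0.26 (adjusted p = 0.00082). At 4 h the groups stood at 4.62 ± 1.38 and 7.53 ± 1.13 CPM (SD, n = 3) without a call, and at 0 h its reads were too few for the test.

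*G930009F23Rik* was lower at 0 h (1.19, 1.72 and 1.13 against 2.07, 2.23 and 2.04 CPM) and at 1 h (2.90, 3.55 and 3.78 against 7.64, 6.51 and 6.74 CPM). The groups did not overlap at either time, and the log2 difference was -0.65 ± 0.19 (adjusted p = 0.020) and -1.03 ± 0.13 (adjusted p = 3.3e-05). At 0 h the call was lost under 9 of 15 alternatives, DESeq2 among them. *Malat1* held 94.7, 109 and 107 CPM at 1 h in IFT88siRNA and 178, 193 and 168 CPM in NT, a log2 difference of -0.80 ± 0.06 (adjusted p = 4.7e-07) that all 15 alternatives kept. At 8 h it was again lower (63.4, 61.0 and 78.7 against 111, 104 and 127 CPM), by 0.77 ± 0.12 (adjusted p = 0.018), but 6 of 15 alternatives lost that call. *Gm42047*, near *Klhdc4*, was lower at 0 h (16.6, 15.5 and 14.7 against 28.65, 22.97 and 25.64 CPM) and at 1 h (9.77, 11.3 and 9.46 against 17.6, 16.1 and 16.6 CPM), without overlap. Its differences were -0.72 ± 0.08 and -0.72 ± 0.09.

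The other calls at 0 and 1 h were as follows. At 0 h *Gm42743* (-0.84), *Gm19710* (-0.78), *Gm26578* (-0.73) and *Gm26724* (-0.60) were lower and *Gm43672* was higher (0.62). Of 15 alternatives, 7 lost the call of *Gm26724*, 6 those of *Gm26578* and *Gm43672*, 2 that of *Gm19710* and 1 that of *Gm42743*. At 1 h *4632404H12Rik* (-0.84), *AI480526* (-0.80), *Gm3764* (-0.71), *Gm45250* (-0.69), *Gm26532* (-0.67), *Gm16907* (-0.66), *Gdap10* (-0.65), *Gm26578* (-0.65) and *Gm26651* (-0.64) were lower. Here 7 of 15 alternatives lost the call of *Gm26578*, 6 those of *Gdap10* and *Gm3764*, and 5 those of *Gm16907* and *Gm45250*. The call of *Gm26651* was lost under 4, and those of *4632404H12Rik*, *AI480526* and *Gm26532* under 3 each. Of the 13 called at 1 h, 10 had a correlation over 0.5 with *Neat1* in the deviations described above and 8 over 0.8, and *Neat1* was itself at -0.93 ± 0.25 at 1 h (adjusted p = 0.077). The part of this shared variation in the calls was not tested. Without IFT88siRNA replicate 1 at 1 h, 8 were called, and without NT replicate 3 at 0 h, 4 were called.

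At 4 h only *Bc1* was called, higher in IFT88siRNA (2.13, 2.52 and 2.48 against 1.64, 1.24 and 1.06 CPM) by 0.85 ± 0.23 (adjusted p = 0.029). Of 15 alternatives, 9 lost this call, DESeq2 among them. At 8 h *Gm26902* was lower (3.52, 3.46 and 3.31 against 4.67, 5.07 and 5.97 CPM) by 0.63 ± 0.14 (adjusted p = 0.019), beside *Malat1*, and 6 of 15 alternatives lost this call. *Ch25h* stood at 25.6 ± 1.8 CPM in IFT88siRNA and 45.7 ± 3.9 CPM in NT at that time (SD, n = 3). At 24 h only *Gm42743* was called (-0.64 ± 0.18, adjusted p = 0.024), and 10 of 15 alternatives lost this call, DESeq2 among them. The 8 h count rests on IFT88siRNA replicate 3: without it 28 lincRNAs were called, 27 of them lower. Without IFT88siRNA replicate 3 at 4 h, 6 were called, each lower. At 2 h, 3 were called without NT replicate 2 and 2 without IFT88siRNA replicate 3.

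Tested together over the 6 times, 14 of 122 were called (12 lower and 2 higher by their largest difference), and 5.07% of all genes. Beside those named at single times, they included *AI839979* (-0.59 at its largest), *2310001H17Rik* (-0.59), *Gm567* (-0.76) and *Gm26917* (-0.65). Of 11 alternatives, 8 lost the call of *Gm26917*, the replicate block among them, 6 that of *AI839979*, 3 that of *2310001H17Rik* and 2 that of *Gm567*. Without the replicates numbered 1, 6 were called. *Xist* was lower by 0.43 ± 0.06 at 1 h (adjusted p = 0.00017) and by 0.24 ± 0.04 at 0 h (adjusted p = 0.00036), under the fold limit for a call. Of the lists of paraspeckle, microRNA processing and exosome proteins, no gene was called between the siRNA groups at any single time by edgeR.

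A different response to IL-1β between the groups was called for 2 of 122 lincRNAs, and for 1.24% of all genes. *Gm26809* went from 5.64 ± 0.47 to 12.5 ± 0.3 CPM by 4 h in NT and from 6.41 ± 0.86 to 9.24 ± 0.59 CPM in IFT88siRNA (SD, n = 3). The difference in log2 change was -0.62 ± 0.15 at 4 h (adjusted p over the 5 times = 0.026). *G930009F23Rik*, low at 0 h in IFT88siRNA, was at the NT level at 24 h (8.36, 7.99 and 7.89 against 7.74, 7.92 and 8.84 CPM), where the groups overlapped. The difference in log2 change was -0.37 ± 0.28 at 1 h and 0.63 ± 0.26 at 24 h (adjusted p over the 5 times = 0.021). On the TPM values the largest difference for *G930009F23Rik* was -0.53 to -0.58, of the other sign. Neither call held on the TPM values or without the replicates numbered 1, and that of *Gm26809* was also lost without those numbered 2 or 3.

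Altogether 37 of the 122 lincRNAs were called neither over the course in either group nor between the groups at a single time. The matching share of all genes is not given. The 37 included *Xist*, *2900097C17Rik*, *1700020I14Rik*, *Hotair*, *Fam120aos*, *Lppos*, *Dubr* and *Tmem250-ps*. In NT *Dubr* was at a log2 change of 0.57 at 24 h (adjusted p = 2.1e-09), under the fold limit. *AU020206* was at 0.53 at 4 h in NT and was called over the course in IFT88siRNA only. Its response did not pass the test of a difference between the groups. *Gdap10* rose by 1.2 at 4 h, and *Platr22* by 0.93 at 1 h and 1.14 at 24 h.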

How the data were processed

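Raw counts per gene and TPM values of 36 libraries were used. Per the study's methods, the authors aligned 75 bp paired-end reads of poly(A) libraries to GRCm38 with HISAT2 2.1.0 and obtained the deposited counts with featureCounts (Subread 1.6.3, Ensembl annotation, default settings, so unstranded). The authors obtained the deposited TPM values with Salmon 0.9.1. The members, gene lists and comparisons were chosen with earlier results of these data known.

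Counts were tested with edgeR 4.0.16 (R 4.3.3), using TMM scaling, filterByExpr and robust quasi-likelihood F-tests, with Benjamini-Hochberg adjustment over all genes tested. At each time the 6 libraries of IFT88siRNA and NT were fitted alone, time courses were fitted within each siRNA group, and the 6 times together and the response (an interaction) were fitted over all 36 libraries. A call needed an adjusted p under 0.05 and a fold change over 1.5. The direction of a joint test is that of its largest log2 change. SE is the log2 change divided by the square root of F. CPM values are TMM-scaled over 36 libraries. The tests were checked on simulated counts.

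Genes named are list members, members with a gene symbol rather than a clone name, the 10 of highest TPM, the 5 largest called rises and falls of each comparison that moved one way in each same-numbered pair of replicates, members at the count limit, those with a called difference in response, and coding neighbours. The other called lincRNAs named, those described for their likeness to *Neat1* and the printed promoters were chosen after their values were seen. Alternatives were DESeq2 1.42.0, its size factors, limma 3.58.1 on log2(TPM + 1) or log2(TPM + 0.1) for genes at 1 TPM or more in 3 libraries or without that filter, no count filter, no fold limit, 1 model for all libraries, a replicate block and leaving out replicates. Positions come from the GENCODE annotation of GRCm38, and promoter and microRNA sequences from RefSeq (GRCm38.p6).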

Additional observations from a re-analysis of the deposited data

Results flagged for a closer look

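A difference in the response to IL-1β between IFT88siRNA and NT, tested as an interaction over the 5 times, was called for 2 lincRNAs. For *Gm26809* the largest difference in log2 change, IFT88siRNA minus NT, was -0.62 at 4 h (adjusted p over the 5 times = 0.026, edgeR). For *G930009F23Rik* it was 0.63 at 24 h (adjusted p over the 5 times = 0.021, edgeR), where the time alone had an adjusted p of 0.55. Of the exonic bases of *Gm26809*, 28.7% are shared with *Gm20186* on the other strand, and the effect of this on its count was not tested. With 3 libraries per condition, no single library was screened for standing apart.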

How the results depend on the processing

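Numbers of lincRNAs called, IFT88siRNA against NT, depended on the fold limit, the unit and single libraries; the causes were not tested. Without the fold limit they were 32, 28, 2, 2, 4 and 10 at 0, 1, 2, 4, 8 and 24 h, 41 over the 6 times and 7 for the response, and against 0 h in NT they were 71, 61, 51 and 49 at 1, 4, 8 and 24 h. With limma on log2(TPM + 1) there were 3 at 0 h, 7 at 1 h, 0 at 4, 8 and 24 h, 7 over the 6 times and 0 for the response. With log2(TPM + 0.1) these were 3, 6, 0, 0, 0, 7 and 0, and with no TPM filter 1, 1, 0, 0, 0, 5 and 0. Without the count filter there was 1 at 2 h, 2 at 4 h, 5 at 8 h and 4 for the response. In 1 model of all 36 libraries there were 3, 7, 2, 0, 4 and 0 at the 6 times. DESeq2 called 0 at 24 h, and 1 at 4 h that was not *Bc1*. Its size factors moved no count by over 1.5 times.

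Leaving out replicates gave 4 to 9 at 0 h, 8 to 19 at 1 h, 0 to 3 at 2 h, 0 to 6 at 4 h, 0 to 28 at 8 h and 0 to 1 at 24 h. At 4 h none was called without NT replicate 2 or 3 or IFT88siRNA replicate 1, at 8 h none without NT replicate 3 or IFT88siRNA replicate 2, 1 without NT replicate 1 or 2 and 4 without IFT88siRNA replicate 1, and at 24 h none without IFT88siRNA replicate 1 or 3. Over the 6 times 6 to 18 were called and for the response 0 to 1. In NT the range was 34 to 38 at 1 h, 47 to 51 at 2 h, 33 to 39 at 4 h, 24 to 28 at 8 h, 19 to 29 at 24 h and 70 to 73 over the course, and in IFT88siRNA 58 to 84 over the course.

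Same-numbered libraries did not deviate together: over 48 pairs the correlation of deviations ran from -0.133 to 0.223, was over 0.1 for 2, and 13 correlated best with their own number. With the replicate block, 7, 16, 1, 2, 4 and 1 lincRNAs were called at the 6 times, 15 over them and 3 for the response. Among the recomputed values of 90 named calls, 910 stayed past the threshold in the same direction, 172 were no longer past it and 4 turned direction, all in joint tests, where the direction is that of the largest change. These were *Gm26902* over the 6 times without the replicates numbered 2 (range -1.16 to 0.66 on leaving out replicates) and the response of *G930009F23Rik* with limma on log2(TPM + 1) with or without the filter (-0.53 each) and on log2(TPM + 0.1) (-0.58).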
